A study of Mus musculus with 10 samples.

Results

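Fibronectin, osteopontin and 8 matricellular glycoprotein genes were followed in macrophages sorted from 4T1 tumours. The genes were taken by symbol from the count table, and all 10 (Fn1, Spp1, Thbs1, Tgfbi, Tnc, Postn, Thbs2, Sparc, Ctgf and Cyr61) were found among its 46603 genes. All 10 also passed the filter on low counts. 4T1 cells come from a mouse mammary carcinoma and grow as tumours in mice. From each of 5 tumours, numbered 1, 2, 4, 5 and 6, viable CD11B+ F4/80+ cells, a gate that takes in macrophages, were sorted into a podoplanin-positive fraction, called PoEMs, and a podoplanin-negative fraction, called non-PoEMs. Both fractions went through the same digestion with collagenase and dispase, red cell lysis and SMART-Seq amplification, and no genotype, treatment or age is labelled. The submitters gave the aim of the study as the role of podoplanin-positive macrophages in lymphatic vessel growth and matrix remodelling, and the comparison here asks which of the 10 genes differed between the fractions.

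Fibronectin is a large dimeric glycoprotein that cells assemble into fibrils through integrins, and it is a common early component of wound and tumour matrix. Matricellular proteins are secreted into the matrix without being a main structural part of it. They bind cell surface receptors, growth factors, proteases and collagen, and many are made at sites of injury, remodelling and tumour growth. Macrophages are known to make fibronectin, osteopontin, thrombospondin 1 and the protein encoded by Tgfbi, whereas tenascin C, periostin, thrombospondin 2, SPARC and the CCN proteins encoded by Ctgf and Cyr61 are best known from fibroblasts and other stromal cells. The genes were placed in a macrophage class of 4 and a stromal class of 6 on that background, but with earlier results of these data known. Differences in level between the classes are therefore given as description.

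Library totals ran from 12597829 to 15406722 counts over the 10 libraries, so that 3 counts, taken as the floor of detection, corresponded to 0.196 to 0.235 CPM (read counts relative to library size, here with TMM scaling). Pdpn, the gene of the sort marker, measured 214.5 ± 22.9 CPM in PoEMs and 19.3 ± 7.33 CPM in non-PoEMs (SD, n = 5 each), and was higher in PoEMs of 5 of 5 tumours. The 13 macrophage markers summed to between 39477 and 45926 CPM in PoEMs and between 38979 and 45736 CPM in non-PoEMs. Of these markers 2 were higher (Ctsd and Itgam) and 1 lower (Csf1r) by edgeR, where 6.83% and 6.77% of all tested genes were. Their median log2 fold change was 0.07, beside 0.01 over all tested genes. Csf1r measured 2405 ± 226 against 2849 ± 133 CPM, Adgre1 (F4/80) 526 ± 70.7 against 573 ± 62.2 CPM and Itgam (CD11B) 1384 ± 59.3 against 1185 ± 69.3 CPM (SD, n = 5 each). Ctsd, with the lowest p of the list, measured 3048 ± 247 against 1734 ± 131 CPM (SD, n = 5 each, adjusted p = 3.95e-05 by edgeR). Whether the tumours grew in different mice is not labelled, and p-values measure only the spread between these libraries. In such bulk libraries fewer cells of a type and less RNA per cell cannot be told apart.

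Of the 10 genes, 7 were higher in PoEMs and 0 lower (edgeR's quasi-likelihood test, Benjamini-Hochberg adjustment over 13595 genes, threshold 0.05). Over all tested genes, 6.83% were called higher and 6.77% lower. At an unadjusted p under 0.05 the counts for the 10 genes were also 7 and 0, and DESeq2 gave 7 and 0. The genes that rose were Thbs2, Tnc, Postn, Sparc and Ctgf of the stromal class and Spp1 and Fn1 of the macrophage class. For the same 7 genes the lowest PoEM library lay above the highest non-PoEM library, which held for 5.38% of all tested genes. The reverse held for 0 of the 10 and for 5.13% of all tested genes. Thbs1 and Tgfbi, both of the macrophage class, and Cyr61, of the stromal class, did not pass the edgeR test. That test did not use the tumour that the fractions share. With the tumour as a block Cyr61 was called higher as well (edgeR adjusted p = 0.0186), and Thbs1 and Tgfbi were not called.

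**Figure D1:**
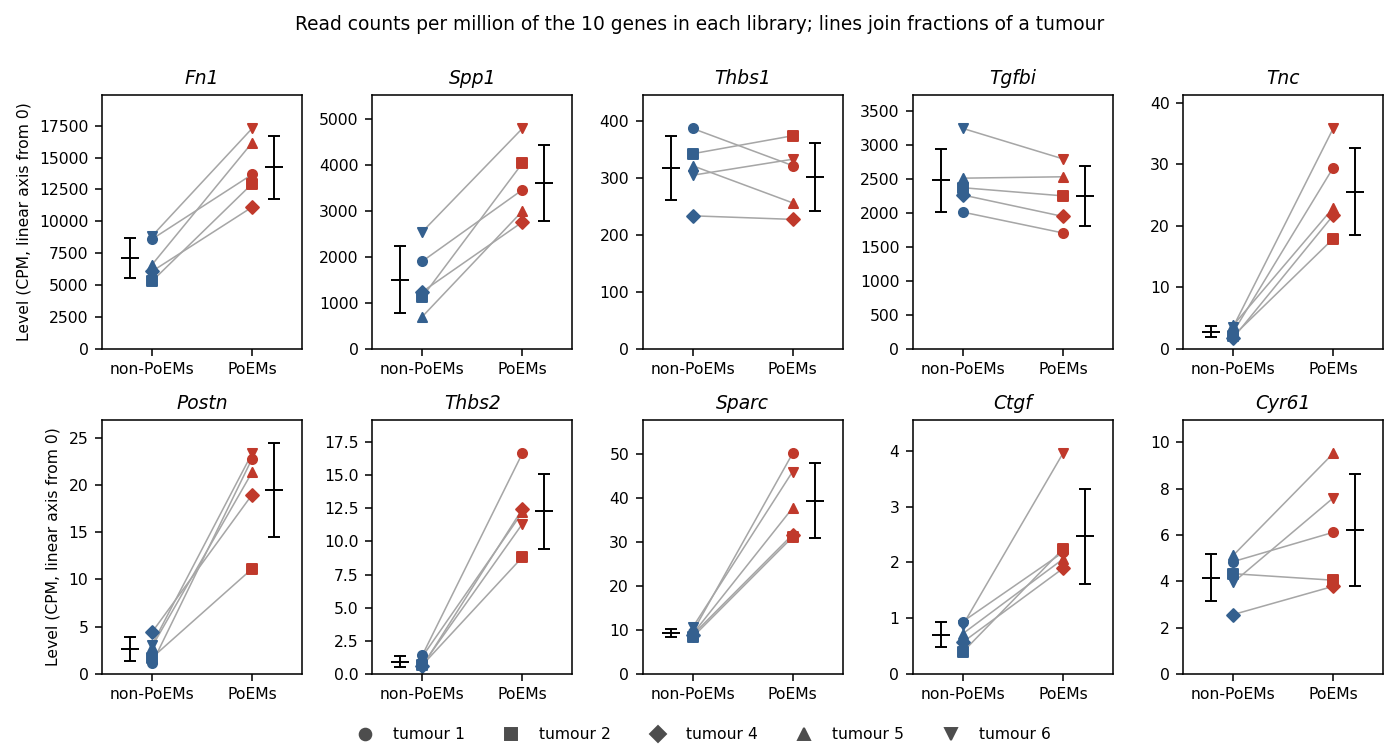
Level of each gene in CPM (vertical axes, linear from 0, own scale per panel) in non-PoEMs (blue) and PoEMs (red). Symbols mark tumours, grey lines join the fractions of a tumour, and black bars give the mean and SD of 5 libraries. For Fn1 the PoEM libraries lie between 11113 and 17284 CPM and the non-PoEM libraries between 5309 and 8852 CPM, whereas for Thbs1 and Tgfbi the ranges overlap.

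Fn1 was abundant in both fractions and 2.01-fold higher in PoEMs (95% interval 1.58 to 2.55). Fn1 (ENSMUSG00000026193, chromosome 1, 71585520 to 71653200 of GRCm38, minus strand) encodes fibronectin. Its level was 13674, 12943, 11113, 16162 and 17284 CPM in PoEMs of tumours 1, 2, 4, 5 and 6, and 8606, 5309, 6080.1, 6606 and 8852 CPM in non-PoEMs of the same tumours. Every PoEM library was above every non-PoEM library, and tumour 6 was highest in both fractions. The mean was 14235 ± 2487 against 7091 ± 1568 CPM (SD, n = 5 each), and the log2 fold change was 1.01 ± 0.16 (SE, adjusted p = 0.00153 by edgeR). Reads of this single gene made up 1.146% to 1.67% of all counts in PoEM libraries and 0.526% to 0.890% in non-PoEM libraries. The ratio between fractions of a tumour ran from 1.59 in tumour 1 to 2.45 in tumour 5.

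Spp1 had the highest level per length of the 10 genes in PoEMs, and its gain varied more between tumours than that of Fn1. Spp1 (ENSMUSG00000029304, chromosome 5, 104435118 to 104441050, plus strand) encodes osteopontin, a secreted phosphoprotein that binds integrins and CD44 and is typical of tumour macrophages. The PoEM libraries held 3462, 4041, 2761, 2999 and 4799 CPM, in the order of tumours 1, 2, 4, 5 and 6. The non-PoEM libraries held 1907, 1129.6, 1244, 703 and 2551 CPM in that order. The groups did not overlap, but the lowest PoEM library (tumour 4) and the highest non-PoEM library (tumour 6) were close. The mean was 3612 ± 824 against 1507 ± 726 CPM (SD, n = 5 each), and Spp1 rose by 1.26 ± 0.32 in log2 terms (SE, adjusted p = 0.0304 by edgeR). Within tumours PoEMs exceeded non-PoEMs by 1.82, 3.58, 2.22, 4.27 and 1.88 times. Tumours 2 and 5 had the largest ratios for Spp1 and also for Fn1 (2.44 and 2.45). The call for Spp1 was lost on leaving out PoEMs of tumour 1 (adjusted p = 0.0598), tumour 2 (0.0575) or tumour 6 (0.0667), or non-PoEMs of tumour 2 (0.0775) or tumour 4 (0.0663), with log2 fold changes between 1.08 and 1.54 over all 10 omissions. With the tumour as a block it was kept (adjusted p = 0.0178), though not when both libraries of tumour 4 were then left out (0.0541).

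The promoter windows of Spp1, of the 3 genes that rose most (Thbs2, Tnc and Postn) and of Tgfbi are shown with each gene, so that genes of either class can be compared by sequence. They come from RefSeq on GRCm38.p6, run from 250 bases before to 50 bases after the start site and read 5′ to 3′ on the strand of the gene. Of several windows of a gene, that nearest to the start of its most upstream principal transcript in GENCODE M21 was taken. Capitals mark matches on either strand to 7 motifs. The TATA box was searched as TATAAA. The SMAD motif was searched as CAGACA and the RUNX motif as ACCACA. For TEAD the letters were GGAATG, and for AP-1 they were TGANTCA. The HIF motif was ACGTG, and the CArG box is given by name. The window of Spp1 lies on the plus strand at chr5:104434861-104435160 and holds a TATA, a RUNX and a SMAD match.
Spp1: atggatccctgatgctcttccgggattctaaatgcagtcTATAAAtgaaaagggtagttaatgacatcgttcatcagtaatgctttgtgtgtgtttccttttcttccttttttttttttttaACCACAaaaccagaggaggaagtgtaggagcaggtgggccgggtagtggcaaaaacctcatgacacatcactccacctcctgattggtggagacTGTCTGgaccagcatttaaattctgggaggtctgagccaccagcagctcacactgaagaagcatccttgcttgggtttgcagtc

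Thbs1 and Tgfbi were abundant and nearly level between the fractions. Thbs1 (ENSMUSG00000040152, chromosome 2, 118111876 to 118127133, plus strand) encodes thrombospondin 1, which inhibits angiogenesis through CD36, binds CD47 and activates latent TGF-beta. It measured 322, 375, 228, 257 and 333 CPM in PoEMs and 387, 343, 234, 322 and 305 CPM in non-PoEMs of tumours 1, 2, 4, 5 and 6. The groups overlapped, and PoEMs were higher in 2 tumours and lower in 3. The fitted log2 difference was -0.07 ± 0.15 (SE, adjusted p = 0.805 by edgeR), with a 95% interval of 0.754 to 1.20 for the fold. Its sign turned on leaving out non-PoEMs of tumour 1 or PoEMs of tumour 4 (0.01 in each case).

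Tgfbi (ENSMUSG00000035493, chromosome 13, 56609523 to 56639562, plus strand) encodes a TGF-beta-induced adhesion protein with fasciclin domains. PoEMs held 1705, 2251, 1948, 2531 and 2795 CPM and non-PoEMs 2011, 2370.5, 2263, 2511 and 3242 CPM of Tgfbi. The tumours came in the same order in both fractions, with tumour 1 lowest and tumour 6 highest. PoEMs were lower in 4 of 5 tumours. The fitted log2 difference was -0.14 ± 0.15 (SE, adjusted p = 0.583 by edgeR), and the 95% interval of the fold was 0.723 to 1.13. With the tumour as a block the adjusted p was 0.0526. Its promoter window, on the plus strand at chr13:56609336-56609635, holds no match to the 7 motifs.
Tgfbi: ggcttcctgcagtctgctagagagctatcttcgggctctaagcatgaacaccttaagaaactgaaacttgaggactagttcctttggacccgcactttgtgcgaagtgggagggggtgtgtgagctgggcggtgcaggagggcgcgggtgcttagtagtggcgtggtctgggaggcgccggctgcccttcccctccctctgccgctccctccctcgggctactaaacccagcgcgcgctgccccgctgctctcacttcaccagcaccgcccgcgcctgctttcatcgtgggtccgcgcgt

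**Figure D2:**
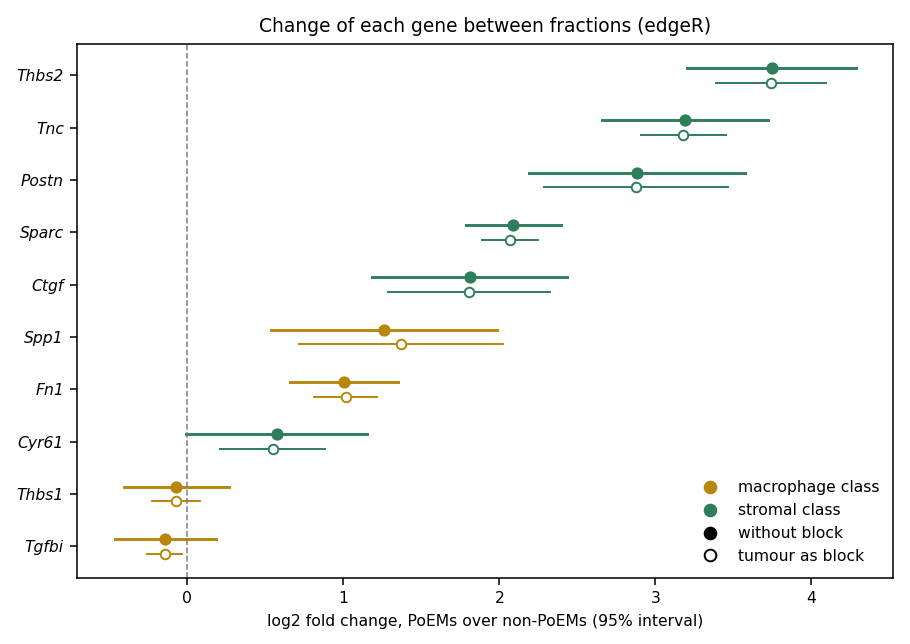
Log2 fold change of each gene, PoEMs over non-PoEMs (horizontal axis), with its 95% interval, without a block (filled) and with the tumour as a block (open). Gold marks the macrophage class and green the stromal class. Thbs2 is highest at 3.75, and without the block the intervals of Thbs1, Tgfbi and Cyr61 include 0.

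Of the stromal class, Thbs2, Tnc, Postn, Sparc and Ctgf rose, and Cyr61 did not pass the test without the block. Thbs2 (ENSMUSG00000023885, chromosome 17, 14665500 to 14694235, minus strand) encodes thrombospondin 2, an antiangiogenic relative of thrombospondin 1 that also affects collagen fibril assembly. It measured 16.7, 8.81, 12.4, 12.2 and 11.3 CPM in PoEMs of tumours 1, 2, 4, 5 and 6, against 1.41, 0.655, 0.569, 1.298 and 0.658 CPM in non-PoEMs. The non-PoEM values rested on 8 to 18 counts per library. The mean was 12.3 ± 2.83 against 0.917 ± 0.401 CPM (SD, n = 5 each). The fold was 13.4 (95% interval 9.22 to 19.5) and its log2 value 3.75 ± 0.25 (SE, adjusted p = 2.73e-06 by edgeR), the largest of the 10 genes. Its ratio was highest in tumour 4 (20.7) and lowest in tumour 5 (9.17). The promoter window lies on the minus strand at chr17:14694213-14694512 and holds the reverse complement of TATAAA and 2 SMAD matches.
Thbs2: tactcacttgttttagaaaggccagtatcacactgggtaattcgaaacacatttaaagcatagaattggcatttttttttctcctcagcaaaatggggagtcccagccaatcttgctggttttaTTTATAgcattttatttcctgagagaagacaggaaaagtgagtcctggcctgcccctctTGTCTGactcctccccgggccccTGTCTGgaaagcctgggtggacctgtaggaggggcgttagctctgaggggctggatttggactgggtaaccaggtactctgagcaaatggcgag

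Tnc (ENSMUSG00000028364, chromosome 4, 63959785 to 64047015, minus strand) encodes tenascin C, a hexameric glycoprotein of wound and tumour stroma that can signal through integrins and Tlr4. It measured 29.4, 17.9, 21.7, 22.9 and 35.8 CPM in PoEMs and 2.74, 2.10, 1.78, 3.82 and 3.58 CPM in non-PoEMs of tumours 1, 2, 4, 5 and 6. All PoEM libraries stood well above all non-PoEM libraries. Tnc rose by 3.19 ± 0.24 in log2 terms (SE, adjusted p = 1.67e-05 by edgeR), with ratios from 5.96 in tumour 5 to 12.0 in tumour 4. The promoter window, on the minus strand at chr4:64046966-64047265, holds 1 TATA and 1 SMAD match.
Tnc: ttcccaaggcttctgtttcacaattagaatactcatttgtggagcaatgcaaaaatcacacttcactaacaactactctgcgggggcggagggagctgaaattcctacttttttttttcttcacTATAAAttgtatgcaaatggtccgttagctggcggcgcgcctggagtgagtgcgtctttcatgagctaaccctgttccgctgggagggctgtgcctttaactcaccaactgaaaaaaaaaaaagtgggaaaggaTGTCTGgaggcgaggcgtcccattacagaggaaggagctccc

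Postn (ENSMUSG00000027750, chromosome 3, 54361109 to 54391037, plus strand) encodes periostin, a fasciclin-domain protein related to the Tgfbi product that promotes collagen cross-linking. In PoEMs it measured 22.8, 11.1, 19.0, 21.3 and 23.3 CPM, and in non-PoEMs 1.09, 1.70, 4.41, 2.88 and 3.07 CPM. Tumour 2 was the lowest of the PoEM libraries and tumour 1 the lowest of the non-PoEM libraries. The non-PoEM values of Postn rested on 14 counts in tumour 1 and up to 62 in tumour 4. Postn rose by 2.88 ± 0.31 in log2 terms (SE, adjusted p = 0.000229 by edgeR), and the ratio within tumours spread widely, from 4.28 in tumour 4 to 20.1 in tumour 1. The promoter window, on the plus strand at chr3:54360857-54361156, holds 1 TATA match close to the start site.
Postn: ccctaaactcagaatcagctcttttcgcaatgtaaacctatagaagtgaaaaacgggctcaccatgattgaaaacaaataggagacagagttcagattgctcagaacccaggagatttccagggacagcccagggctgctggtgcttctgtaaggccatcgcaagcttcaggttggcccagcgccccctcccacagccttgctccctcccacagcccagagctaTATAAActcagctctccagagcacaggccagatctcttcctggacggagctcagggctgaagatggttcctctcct

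Sparc (ENSMUSG00000018593, chromosome 11, 55394500 to 55423183, minus strand) encodes a collagen-binding, counter-adhesive glycoprotein also called osteonectin. PoEMs of tumours 1, 2, 4, 5 and 6 held 50.03, 31.1, 31.6, 37.6 and 45.9 CPM, and non-PoEMs 9.46, 8.32, 8.82, 9.01 and 10.5 CPM. It was the steadiest of the stromal genes in non-PoEMs, with a coefficient of variation of 9.04% there and 21.6% in PoEMs. The fold was 4.25 (95% interval 3.44 to 5.25), or 2.09 ± 0.14 in log2 terms (SE, adjusted p = 2.97e-06 by edgeR).

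The CCN genes were scarce, and without the block Ctgf was called higher and Cyr61 was not. Ctgf (ENSMUSG00000019997, chromosome 10, 24595442 to 24598683, plus strand) encodes connective tissue growth factor, a CCN protein and a classical target of TGF-beta and YAP. It measured 2.18, 2.24, 1.89, 2.06 and 3.95 CPM in PoEMs and 0.938, 0.393, 0.569, 0.721 and 0.877 CPM in non-PoEMs. These values rested on 27 to 51 and on 6 to 12 counts per library. Every PoEM library was above every non-PoEM library, and tumour 6 stood apart from the other PoEM libraries. Ctgf rose by 1.81 ± 0.29 in log2 terms (SE, adjusted p = 0.0014 by edgeR), and by 1.58 without PoEMs of tumour 6.

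Cyr61 (ENSMUSG00000028195, chromosome 3, 145646976 to 145649981, minus strand) encodes the related protein CCN1, which binds integrins and heparan sulphate. Its values were 6.11, 4.04, 3.78, 9.52 and 7.60 CPM in PoEMs and 4.85, 4.33, 2.56, 5.12 and 3.95 CPM in non-PoEMs of tumours 1, 2, 4, 5 and 6. The groups overlapped, with PoEMs higher in 4 tumours and lower in tumour 2. Without the block, the log2 difference of 0.57 ± 0.27 (SE) did not pass the test (adjusted p = 0.182 by edgeR), and the 95% interval of the fold was 0.995 to 2.22. With the tumour as a block Cyr61 was called higher (0.55 ± 0.16, SE, adjusted p = 0.0186 by edgeR). That made 8 of the 10 genes higher, where 13.8% of all tested genes were called higher and 14.3% lower with the block (28.2% in either direction). The blocked call was lost without the libraries of tumour 5 (adjusted p = 0.104) or of tumour 6 (0.0649).

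**Figure D3:**
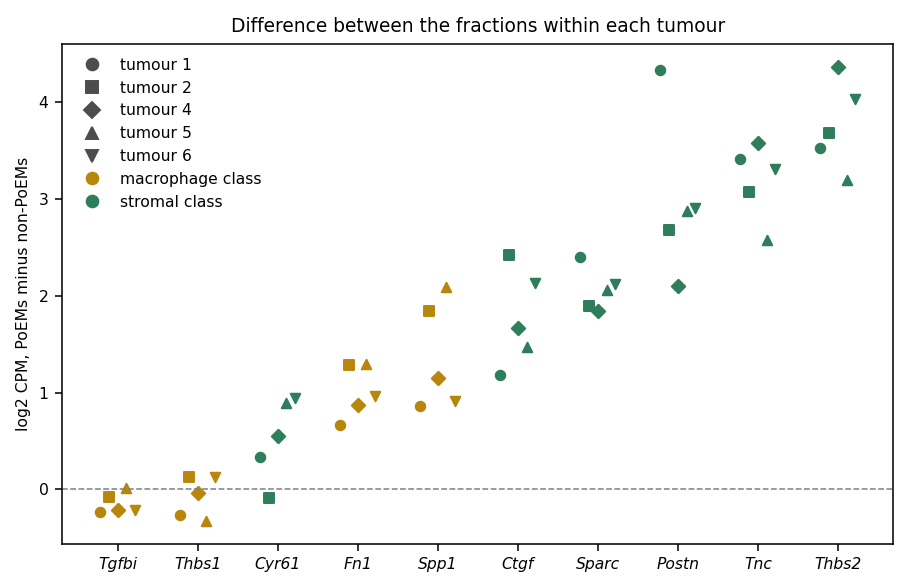
Difference in log2 CPM, PoEMs minus non-PoEMs, within each tumour (symbols) for each gene, in order of the fitted change. Gold marks the macrophage class and green the stromal class. For 7 genes all 5 tumours lie above 0, while Tgfbi has 4 tumours and Thbs1 3 tumours below 0.

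Levels can be set against each other between genes only per length of transcript. Per kilobase of annotated exon, Spp1 was highest in PoEMs at 2192 ± 500.03 CPM per kilobase, followed by Fn1 at 1218 ± 213, Tgfbi at 596 ± 116 and Thbs1 at 49.9 ± 9.83 (SD, n = 5). Among 21547 protein-coding genes ranked per length, Spp1 stood between 5 and 12 in PoEM libraries and between 13 and 79 in non-PoEM libraries. Fn1 stood between 18 and 26 in PoEMs and between 32 and 62 in non-PoEMs. The stromal genes followed with Sparc at 10.4 ± 2.24, Tnc at 3.29 ± 0.912, Cyr61 at 3.08 ± 1.20, Postn at 2.24 ± 0.573, Thbs2 at 1.75 ± 0.405 and Ctgf at 0.861 ± 0.295 CPM per kilobase (SD, n = 5). From Tnc downwards in that order, the ranges of neighbours overlapped in PoEMs. Those above Tnc did not overlap with their neighbours. The order depends on the length used: per kilobase of the longest transcript Postn (3.73) came before Tnc (3.60) and Cyr61 (3.08), and Sparc measured 17.1.

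In non-PoEMs the first places of that order were not separated. Spp1 measured 914 ± 440.5, Tgfbi 658 ± 123 and Fn1 607 ± 134 CPM per kilobase (SD, n = 5), with overlapping ranges. Per kilobase of the longest transcript Fn1 (853) came before Tgfbi (826), and Postn (0.504) before Tnc (0.394). Thbs1 at 52.4 ± 9.28 lay below them and above Sparc at 2.44 ± 0.2202 and Cyr61 at 2.06 ± 0.497, whose ranges overlapped. Tnc (0.361 ± 0.115), Postn (0.302 ± 0.148), Ctgf (0.245 ± 0.0782) and Thbs2 (0.131 ± 0.0572) came last, with overlapping ranges between neighbours. Thbs2 was thus last of the 10 in non-PoEMs and second to last in PoEMs. Summed over genes, the macrophage class took 1.65% to 2.44% of all counts in PoEMs and 0.906% to 1.503% in non-PoEMs, and the stromal class 0.00763% to 0.0130% and 0.00173% to 0.00228%.

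**Figure D4:**
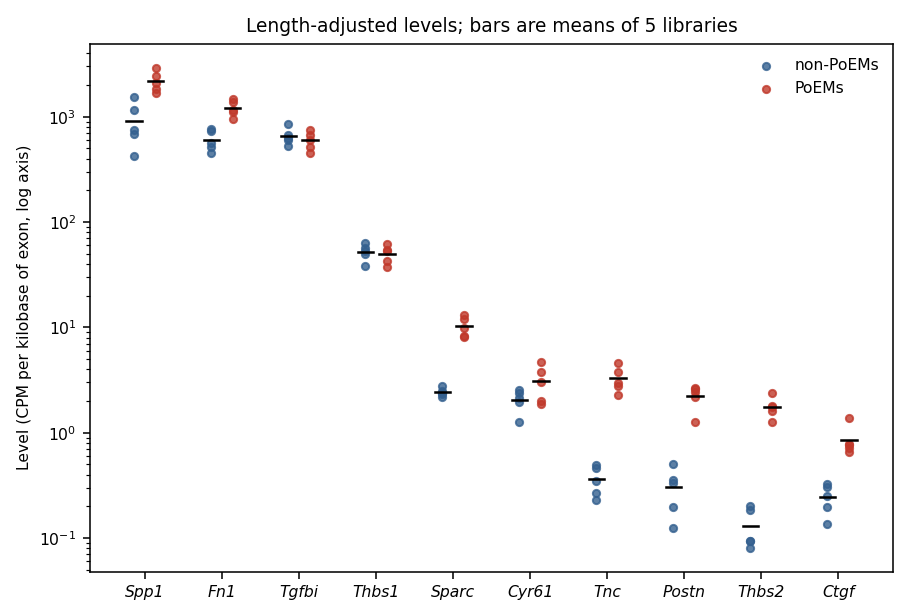
CPM per kilobase of annotated exon (vertical log axis) of the 10 genes in each library, non-PoEMs in blue and PoEMs in red, with bars at the mean of 5 libraries. Genes are ordered by their mean over all libraries. Spp1, Fn1, Tgfbi and Thbs1 reach down to 37.5 CPM per kilobase, and the 6 stromal genes no higher than 13.2.

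Genes set in pairs did not move alike. For 4 pairs, the log2 ratio of read counts was compared between fractions. The test was an exact two-sided permutation test over libraries, with adjustment over the 4 pairs. It did not use the tumour that the fractions share, and the genes were chosen with earlier results of these data known. Tnc and Fn1 were paired as a stromal and a macrophage-expressed glycoprotein, and the other pairs held related genes. The ratio of Thbs2 to Thbs1 was 3.84 ± 0.31 (SE) higher in PoEMs on the log2 scale (adjusted p = 0.0106), that of Postn to Tgfbi 3.12 ± 0.38 higher (adjusted p = 0.0106) and that of Tnc to Fn1 2.17 ± 0.22 higher (adjusted p = 0.0106). The ratio of Ctgf to Cyr61 rose by 1.25 ± 0.35 (adjusted p = 0.0238). For the other ratios the unadjusted exact p of this permutation test was 0.00794, the smallest that 5 against 5 libraries allow. All 4 ratios were higher in PoEMs of 5 of 5 tumours. Paired over tumours, the exact p was 0.0625 for each, the smallest that 5 pairs allow.

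Most fibroblast markers were higher in PoEMs, as were 5 of the 6 stromal genes without the block. Of 19 markers, all tested, 16 were higher and 0 lower by edgeR (16 and 0 at an unadjusted p under 0.05, and by DESeq2), with a median log2 fold change of 2.81, beside 0.01 over all tested genes. They summed to between 318 and 515 CPM in PoEMs and between 35.2 and 49.8 CPM in non-PoEMs, and no marker of the list was at 0 in all libraries. Col1a2, a chain of type I collagen, measured 79.7 ± 13.03 against 4.85 ± 0.826 CPM, Col6a3 of collagen VI 15.02 ± 4.37 against 1.09 ± 0.288 CPM, and Col5a1 of collagen V 17.9 ± 4.05 against 2.55 ± 0.491 CPM (SD, n = 5 each). Fstl1, a secreted SPARC-related glycoprotein, measured 12.1 ± 2.73 against 1.13 ± 0.244 CPM. Clec3b, Twist1 and Fap did not pass the test. The log2 fold changes of the fibroblast markers ran from -0.12 (Fap) to 4.05 (Col3a1). Those of Thbs2, Tnc and Postn (3.75, 3.19 and 2.88) lay within that range. So did those of Sparc and Ctgf (2.09 and 1.81) and of Fn1 and Spp1 (1.01 and 1.26). Cyr61 (0.57) and Thbs1 (-0.07), not called without the block, lay within it too, so the range does not set the risen genes apart. The part of fibroblast RNA in the rise of the genes called higher was not tested.

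Markers of other cell types were counted in the same way. For these and for the fibroblast markers, the shares over all tested genes were 6.83% higher and 6.77% lower. With the tumour as a block they were 13.8% and 14.3%. Of the tested mural cell markers 2 of 5 were higher (Tagln and Acta2), of the blood endothelial markers 1 of 5 (Vwf) and of the platelet markers 1 of 3 (Ppbp, with Itga2b lower). Of 9 tested epithelial and 4T1 tumour cell markers 0 were called by edgeR or DESeq2, and 2 were lower at an unadjusted p under 0.05. With the tumour as a block, edgeR called Cdh1 higher (adjusted p = 0.00682) and Epcam (0.0356) and Krt8 (0.0323) lower. Eosinophil markers were lower in 4 of 5, neutrophil markers in 7 of 8 with 1 higher, monocyte markers in 3 of 8, conventional dendritic cell markers in 2 of 7 and T, NK and B cell markers in 1 of 3. The block raised these counts to 5 lower eosinophil, 5 lower monocyte, 4 lower dendritic and 2 lower lymphocyte markers. It also gave 2 higher endothelial markers and 1 lower mural marker, and among macrophage markers 4 higher and 3 lower. Neutrophil markers summed to 119 to 148 CPM in PoEMs and 221 to 295 CPM in non-PoEMs, and monocyte markers to 455 to 632 and 966 to 1510.1 CPM. Eosinophil markers summed to 4.76 to 14.4 against 58.6 to 149 CPM, with Epx, Prg2, Ear1 and Ear6 at 0 in all PoEM libraries. The platelet genes Gp9, Gp1bb and Gp6 were at 0 in every library, and platelet markers summed to 7.09 to 16.0 against 3.70 to 7.60 CPM. The part of these cells in the levels of Fn1, Spp1, Thbs1 and Tgfbi was not tested.

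The genes nearest in pattern to each of the 10 were looked up across all libraries, where the difference between the fractions enters the measure. Pearson's r of log2 CPM over the 10 libraries, which share tumours and fractions, was computed with every other tested gene of mean log2 CPM of at least 3. Nearest to Tnc were Col1a1 (0.99) and Col5a2 (0.99), to Thbs2 Col5a2 (0.99) and Cep170b (0.99), and to Sparc Col5a1 (0.99) and Col1a2 (0.99). Postn was nearest to Gm6169 (0.98) and to Capg (0.97), which encodes an actin-capping protein. Nearest to Fn1 were Ctsa (0.98), a lysosomal carboxypeptidase gene, and Hilpda (0.98), a hypoxia-inducible lipid droplet gene. Spp1 was nearest to Syngr1 (0.97) and Nek6 (0.96), and Ctgf to the chemokine gene Cxcl3 (0.98) and to Lhfpl2 (0.97). Thbs1 was nearest to Hgf (0.89), the hepatocyte growth factor gene, and Arl10 (0.88). Tgfbi was nearest to Chil3 (0.96), a chitinase-like gene of myeloid cells, and Tarm1 (0.94), and Cyr61 to Fnip1 (0.97) and Tbc1d9 (0.92).

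After the mean of each fraction was removed, the 10 genes still differed in how they varied between tumours. The highest r of such deviations over the 10 libraries were 0.85 between Fn1 and Ctgf, 0.71 between Tnc and Sparc and 0.69 between Tnc and Ctgf. Fn1 and Spp1 had 0.66, and Tnc and Postn 0.22. The lowest was -0.69, between Thbs1 and Postn. With the fraction means removed, the nearest genes to Tnc were 1700017B05Rik (0.96) and Mex3d (0.96). For Thbs2 they were Dock6 (0.91) and Tfip11 (0.91), and for Sparc Gm15703 (0.93) and Ppp2r2d (0.92). No collagen gene was among the first 4 of any of these. The search took the highest r of 9710 genes, and Thbs2 in non-PoEMs rested on 8 to 18 counts per library. Nothing is therefore read from the absence of collagens. All these values of r describe 10 libraries of 5 tumours and carry no test.

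Of 19 tested receptor genes of these proteins, 4 were higher and 0 lower (edgeR; 5 and 1 at an unadjusted p under 0.05, and 4 and 1 by DESeq2), with a median log2 fold change of 0.05. In the blocked fit, the counts were 6 higher and 2 lower. Over all tested genes 6.83% were higher and 6.77% lower without the block, and 13.8% and 14.3% with it. Cd36, which encodes a receptor of thrombospondins, measured 13.05 ± 3.58 CPM in PoEMs and 5.405 ± 1.41 CPM in non-PoEMs (SD, n = 5 each). The endocytic receptor gene Lrp1 rose by 0.55 ± 0.10 on the log2 scale (SE, edgeR adjusted p = 0.00334), Stab1, whose product takes up SPARC, by 0.47 ± 0.13 (adjusted p = 0.0323) and the syndecan gene Sdc2 by 0.86 ± 0.25 (adjusted p = 0.0403). The integrin gene Itga4, chosen here after its value was seen, had a log2 fold change of -0.41 ± 0.13 (SE), was lower in PoEMs of 5 of 5 tumours, and passed the edgeR test with the block (adjusted p = 0.000128) but not without it (0.0546).

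Among 17 genes of proteins that cross-link, cleave or phosphorylate the 10 products, 6 of 15 tested were higher and 1 lower (median 0.43). With the block 9 were higher and 1 lower. The shares over all tested genes were 6.83% higher and 6.77% lower without the block, and 13.8% and 14.3% with it. Fam20c, the kinase of secreted phosphoproteins such as osteopontin, measured 192 ± 23.6 against 83.8 ± 9.87 CPM (SD, n = 5 each; adjusted p = 1.21e-05 by edgeR). The metalloprotease genes Mmp12, Mmp2 and Mmp3 rose by 2.74 ± 0.30, 1.85 ± 0.21 and 1.20 ± 0.23 in log2 terms (SE). The gene that fell was Dpp4, at 2.68 ± 1.32 against 8.94 ± 6.61 CPM (edgeR adjusted p = 0.0416), which is also in the list of conventional dendritic cell markers.

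Further matricellular and adhesive glycoprotein genes numbered 34, of which 18 were tested, 8 higher and 1 lower (median 0.60). With the block 12 were higher and 1 lower. The shares over all tested genes were 6.83% higher and 6.77% lower without the block, and 13.8% and 14.3% with it. The tenascin gene Tnxb rose from 0.209 ± 0.194 CPM, at the floor of 3 counts, to 4.15 ± 2.299 CPM (SD, n = 5 each). The fibulin gene Fbln1 rose from 0.0695 ± 0.0465 CPM, below that floor, to 1.18 ± 0.411 CPM. Nid1, which encodes the basement membrane linker nidogen 1, rose from 0.790 ± 0.282 to 5.61 ± 1.73 CPM. Fstl1, given above, was also in this list, and Fstl1 and Fbln1 are fibroblast markers as well. Agrn, the gene of agrin, fell by 0.27 on the log2 scale (edgeR adjusted p = 0.0158). The YAP and TEAD pathway, for which Ctgf and Cyr61 are standard targets, was taken as 20 genes. Of these 17 were tested, 2 higher and 2 lower (median -0.05), and 2 higher and 3 lower with the block. These counts lie close to the shares over all tested genes given above, and no change of the pathway is read from them. Nt5e and F3 rose by 1.10 ± 0.21 and 0.76 ± 0.18 in log2 terms (SE), and Lats2 and Amotl2 fell, with log2 fold changes of -0.56 ± 0.09 and -0.77 ± 0.23.

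Promoter windows were compared for the 7 genes in the RefSeq table (Spp1, Tgfbi, Tnc, Postn, Thbs2, Sparc and, as Ccn1, Cyr61), while Fn1, Thbs1 and Ctgf were not in it. The window of Sparc lay 3103 bases from the start of the most upstream principal transcript. TATAAA was present in 5 of the 7 windows (Spp1, Tnc, Postn, Thbs2 and Cyr61) and in 13.6% of all 32851 windows of the table. It began at position -26 from the start site in Postn and at -25 in Cyr61, and farther upstream in Tnc (-126), Thbs2 (-126) and Spp1 (-211). CAGACA lay in 4 of the 7 windows (Spp1, Tnc, Thbs2 and Sparc; 21.04% of all windows) and ACCACA in 2 (Spp1 and Sparc; 16.8%). GGAATG was found in the window of Cyr61 (14.7% of all windows). No window of the 7 held TGANTCA (7.81% of all), ACGTG (19.6%) or the CArG box (1.63%), and the window of Tgfbi held no match to any of the motifs. A match describes these letters and is not a binding site.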

How the data were processed

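The authors deposited raw read counts per gene for 10 libraries, with Ensembl identifiers and gene names. The submitters' processing notes list featureCounts 1.5.3, STAR 2.5.2b, Bowtie2 2.3.3.1 and cutadapt 1.15. Genome build, annotation, strand and multi-mapping settings: not given in the sources used here. SMART-Seq reads carry no molecular identifiers here, so floors cover counting error only.

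Groups and tumour numbers came from the sample titles. The test was that of edgeR 4.0.16 (R 4.3.3) with TMM scaling, filterByExpr by fraction (minimum count 10, minimum total 15, 13595 genes kept) and a robust quasi-likelihood fit with fraction as its only term. P-values were adjusted over all tested genes by the Benjamini-Hochberg method, with a threshold of 0.05. The common biological coefficient of variation was 13.3%. The SE of a log2 fold change is its size divided by the square root of the F statistic, and intervals are at 95%. Fold changes, SEs, intervals and p-values come from the fit without the block unless the block is named. The test was run on simulated counts, drawn independently for each library without a shared tumour effect. That run therefore cannot show how the pairing affects the test. Fractions of a tumour share its label number, and their deviations from the fraction means correlated in all 5 tumours (r from 0.23 to 0.48), so the tumour was also used as a block. No libraries of a fraction agreed within sampling noise (chi-square per gene at least 7.58). Ratios of the paired genes used a prior of 0.5 counts.

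Gene positions and exon lengths came from GENCODE M21 (GRCm38), which held 46005 of the 46603 identifiers and need not be the annotation the authors counted on. The alternatives tried were DESeq2 1.42.0 and its size factors, upper quartile scaling, no filter and a stricter one, the block, and leaving out libraries. The 10 genes and the lists were chosen with earlier results of these data known. Named were the 10 genes, up to 4 genes of each further list by lowest p, the 2 nearest genes in pattern, and Pdpn, Csf1r, Adgre1 and Itgam. Named after their values were seen were called markers of mural, endothelial, platelet and epithelial cells, fibroblast markers that did not pass, markers at 0, Dpp4, Agrn, Itga4 and the nearest genes by deviations for Tnc, Thbs2 and Sparc.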

Additional observations from a re-analysis of the deposited data

Results flagged for a closer look

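Ctgf in PoEMs of tumour 6 stood apart from the other PoEM libraries. It measured 3.955 CPM there, and the nearest library, PoEMs of tumour 2, measured 2.24 CPM and the lowest 1.89 CPM. The gap took 0.831 of the range of the 5 libraries, above Dixon's 95% limit for 5 samples. The value rests on 51 counts, against 27 to 31 in the other PoEM libraries. Without this library the log2 fold change of Ctgf was 1.58. Chance sets apart about 1 in 20 such groups, and 20 groups were looked at.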

How the results depend on the processing

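The log2 fold changes of Fn1, Tnc, Postn, Thbs2, Sparc and Ctgf kept their direction and stayed past the threshold in all 21 alternative fits. Spp1 lost its call in 7 of them: in 5 that left out 1 library, without a filter (adjusted p = 0.0771, with more genes tested), and with the block but without tumour 4. Leaving out 1 library gave 6 to 7 of the 10 genes higher and 0 lower. With the tumour as a replicate block, 1880 genes were higher and 1950 lower over all genes, and Cyr61 was the only one of the 10 genes whose call changed. Leaving out both libraries of a tumour in the blocked fit gave 1360 to 1925 genes higher and 1380 to 2016 lower over all genes (1505 and 1692 without tumour 1, 1447 and 1677 without tumour 4, 1398 and 1564 without tumour 5, 1925 and 2016 without tumour 6), and 7 to 8 of the 10 genes higher and 0 to 1 lower. The 1 was Tgfbi without tumour 5 (-0.19, adjusted p = 0.0317). In the fit without the block, omitting 1 library gave 617 to 1049 genes higher and 577 to 1026 lower. The counts moved over 1.5 times without non-PoEMs of tumour 2 (577 lower) and without PoEMs of tumour 4 (617 higher, 588 lower). The log2 difference of Thbs1 ran from -0.17 to 0.01 over these omissions and changed sign without non-PoEMs of tumour 1 (0.0089) and without PoEMs of tumour 4 (0.0097). Paired over tumours, the ratio differences (Thbs2 to Thbs1 3.84, Ctgf to Cyr61 1.25, Postn to Tgfbi 3.12, Tnc to Fn1 2.17) could not pass the threshold, since 5 pairs allow no p below 0.0625. Per kilobase of the longest transcript, in place of all exons, the levels in PoEMs and non-PoEMs moved to 1712 and 853 for Fn1, 748 and 826 for Tgfbi, 3.73 and 0.504 for Postn, and 17.1 and 4.01 for Sparc. This turned the order of Postn and Tnc in both fractions, of Postn and Cyr61 in PoEMs, and of Fn1 and Tgfbi in non-PoEMs. The cause of other changes was not tested. Depth limits Ctgf and Thbs2 in non-PoEMs, with 6 to 18 counts per library, and Postn in non-PoEMs of tumour 1, with 14 counts.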
